A study of Mus musculus with 4 samples.

Results

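The 10 genes described here encode chaperones of the endoplasmic reticulum (ER) and parts of its stress response, the unfolded protein response: Hspa5, Hsp90b1, Dnajb9, Calr, Canx, Pdia4, Xbp1, Sdf2l1, Herpud1 and Ern1. They were chosen by name, each matched 1 row of a table of 19171 genes by its symbol, and all 10 were among the 12046 genes tested. RNA was measured in primary cells that collagenase released from the calvaria (skull bone) of C57BL/6 mice at postnatal day 10. Every mouse carried floxed copies of the miR-17 cluster and no working copy of the miR-106b cluster (genotype mir17fl/fl:106b-/-), so the controls lack miR-106b-25 as well. Cells of 2 libraries received an adenovirus with Cre, the recombinase that excises floxed DNA, and cells of 2 libraries an adenovirus with the fluorescent protein YFP. RNA was taken 3 days later from whole cultures in which the virus dose aimed at more than 80% infection, and cells were not sorted, so cells without Cre could remain in the Cre group. The groups differ in the virus insert as well as in the deletion, and the effects of both cannot be told apart. Nothing in the labels ties the libraries to separate animals or cultures, so p-values reflect only how far these libraries spread, and that spread may be technical.

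The host transcript of the floxed cluster, Mir17hg, was 3.29 and 3.91 FPKM in the YFP libraries and 7.35 and 8.49 FPKM in the Cre libraries. It was higher, not lower, in both libraries labelled Cre (log2 change 0.96, limma adjusted p = 3.62e-05). The table measures no miRNA of the cluster, and the sources do not say which part of the host transcript Cre removes, so this value does not check the deletion. Directions given with Cre therefore rest on the labels.

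The ER is where secreted and membrane proteins are folded, and cells that secrete collagen, such as osteoblasts and fibroblasts, load it heavily. BiP (Hspa5) and GRP94 (Hsp90b1) hold unfolded chains, calreticulin (Calr) and calnexin (Canx) hold glycoproteins by their sugars, and disulfide isomerases such as Pdia4 form and exchange cysteine bridges. When unfolded protein builds up, the sensors IRE1 (Ern1), PERK and ATF6 are activated: IRE1 splices Xbp1 mRNA into the form that codes for an active transcription factor, ATF6 is cut to release another, and PERK slows translation while favouring that of ATF4. Chaperone genes, co-chaperones such as Dnajb9 and Sdf2l1, and genes of ER-associated degradation (ERAD), such as Herpud1, are common targets of these factors.

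With Cre, the co-chaperone gene Dnajb9 and the lectin chaperone gene Calr rose, and the ERAD gene Herpud1 fell. The calls of Dnajb9 and Herpud1 held in all 11 alternative settings tried, and that of Calr was lost in 5 of them, with an adjusted p of up to 0.181. Dnajb9 went from 39.0 ± 3.07 FPKM (SD, n = 2) to 51.1 ± 0.177 FPKM, Calr from 1063 ± 54.8 FPKM to 1187 ± 3.68 FPKM, and Herpud1 from 48.3 ± 0.955 FPKM to 40.9 ± 0.205 FPKM. Hspa5, the main luminal chaperone, did not pass the test, with a Cre mean at 0.951 of the YFP mean. FPKM is a count of sequenced fragments scaled to transcript length and to the depth of the library. Changes are differences of mean log2(FPKM + 1), fitted over all tested genes with limma, and a gene was called at a Benjamini-Hochberg adjusted p under 0.05. By that rule 2 of the 10 genes were higher with Cre, 1 was lower and 7 were not past the threshold, so 30% were called, against 32.9% of all tested genes (16.6% higher and 16.3% lower). The median log2 change was -0.008 over the 10 genes and -0.013 over all tested genes. The share called among the 10 was therefore close to the background, and the 3 calls were not in one direction. In such bulk RNA, fewer cells of a type and less RNA per cell cannot be told apart.

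The 2 Cre libraries lay on 1 side of the 2 YFP libraries for 9 of the 10 genes, 4 higher and 5 lower with Cre. Such separation was found for 66.9% of all tested genes (31.5% higher and 35.4% lower), so it is common in this comparison. The exception was Sdf2l1. Summed over the 10 genes, FPKM was 2709.75 and 2796.62 in the YFP libraries and 2823.93 and 2783.35 in the Cre libraries, which is 0.591% to 0.612% of the FPKM of a library. Without Calr, the most abundant of them, the sums were 1685.92 and 1695.29 with YFP and 1634.40 and 1599.03 with Cre. Calr was higher in both Cre libraries, so leaving it out took more from the Cre sums. The total of all 10 overlapped between groups, and the total of the other 9 did not. Most of that second total is Hsp90b1 and Hspa5 (YFP means 724.7 and 500 FPKM), neither of which was called. Dnajb9, Canx and Ern1 were higher in both Cre libraries, so the lower total does not describe each of the 9.

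**Figure D1:**
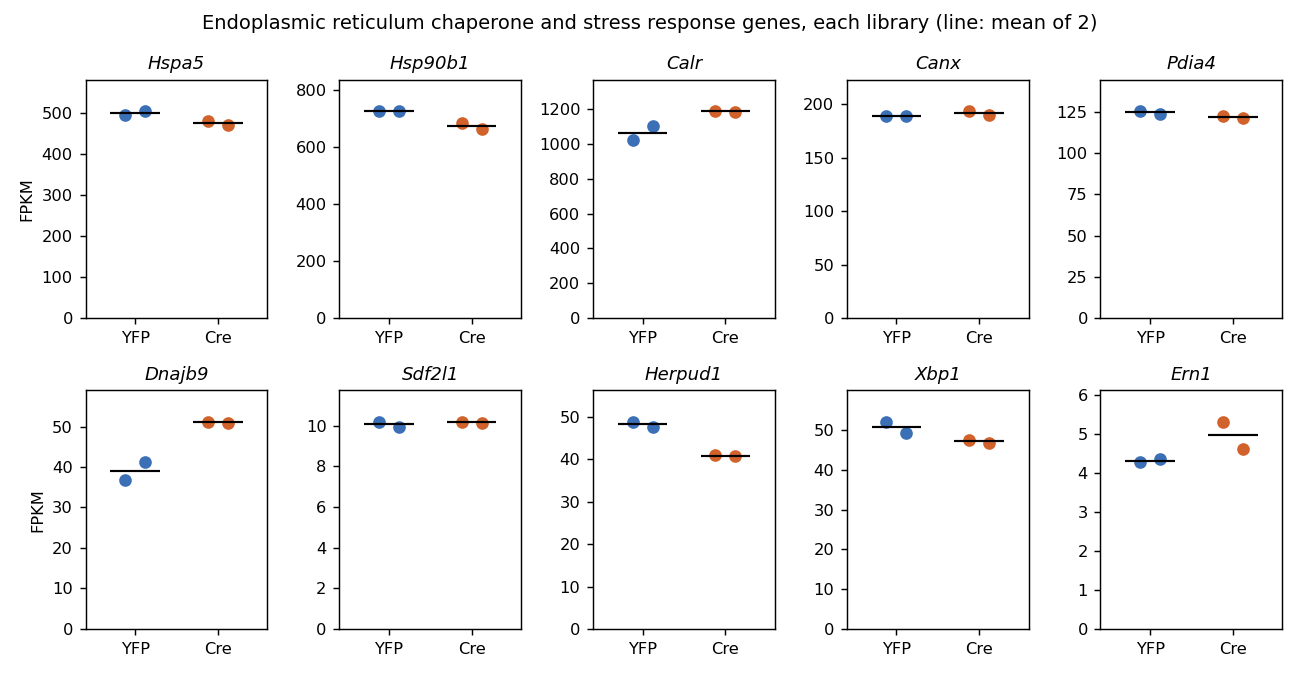
FPKM (y axis, from 0) of the 10 genes in each library, 1 panel per gene; points are the 2 YFP libraries (blue) and the 2 Cre libraries (orange), and lines are group means. Dnajb9 lies at 36.79 and 41.13 with YFP and at 51.24 and 50.99 with Cre, Herpud1 is lower in both Cre libraries, and Sdf2l1 is at about the same level in all 4.

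The libraries as a whole gave FPKM sums of 458756 to 471021, with 17445 and 17452 genes above 0 with YFP and 17891 and 17952 with Cre. The depth in reads is unknown, so no counting error is attached to FPKM. Of the osteoblast markers, Spp1 and Col1a1 were the most abundant and Runx2 was 10.28 to 12.11 FPKM. Sp7 and Alpl were low, at 1.81 to 2.43 FPKM and 1.53 to 2.49 FPKM. The late markers Ibsp and Bglap were at no more than 1.27 FPKM, with Bglap listed at 0 in both YFP libraries. Of 8 tested osteoblast markers 1 was higher (Spp1) and 3 were lower (Col1a2, Bmp4 and Dlx5), with a median log2 change of -0.152. The count of higher markers changed with Cre replicate 2 left out. The list summed to 6227 and 6267 FPKM with YFP and 6656 and 6697 FPKM with Cre. In that sum the mean of Spp1 went from 3184 FPKM with YFP to 3887 FPKM with Cre, and that of Col1a2 from 1286 to 1053 FPKM. Of 11 tested macrophage markers, 6 were higher with Cre and 0 lower (3 higher with Cre replicate 2 left out), and the 13 listed summed to 102.6 and 106 FPKM with YFP and 135 and 144.2 FPKM with Cre. Of all tested genes, 16.6% were higher with Cre and 16.3% lower. Lyz2 and Cd68 were the most abundant of these markers. Lyz2 was called and held most of the sum, with a mean of 77.44 FPKM with YFP and 101.9 FPKM with Cre. Cd68 was not past the threshold (limma adjusted p = 0.0552), and C1qb and C1qc had log2 changes of -0.082 and -0.005. The pan-leukocyte gene Ptprc was at 0.27 to 0.37 FPKM in the 4 libraries. Chondrocyte markers, led by Col2a1 and Sox9, summed to 125.5 and 134 FPKM with YFP and 116.2 and 118.2 FPKM with Cre, with 3 of 7 lower and 0 higher. Endothelial markers, led by Cdh5 and Kdr, summed to 5.17 and 5.32 FPKM with YFP and 6 and 6.59 FPKM with Cre. Of these, 3 were tested and 0 called, and all 3 were higher in both Cre libraries. Adipocyte markers, led by Fabp4 and Lpl, summed to 16.06 and 17.7 FPKM with YFP and 16.92 and 18.68 FPKM with Cre. Of 3 tested, 1 was higher and 1 lower, and the count of lower ones changed with YFP replicate 1 left out. Of the markers of plasma cells, a type rich in ER and Xbp1, only Sdc1 was tested, a gene that stromal cells also express. It rose from 68.57 and 65.35 FPKM to 91.49 and 92.75 FPKM, and Mzb1, Irf4, Prdm1, Igj and Cd79a were at no more than 0.49 FPKM. The part that cell makeup has in the values of the 10 genes was not tested.

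Before single genes are taken up, their promoters are shown for those whose letters match a known ER stress motif, and for Dnajb9, which had the largest change and no match. All 10 genes matched the RefSeq promoter table (GRCm38.p6), and the 250 bases before the start site were searched on both strands. ERSE, the ER stress response element bound by ATF6 and XBP1 with NF-Y, was searched as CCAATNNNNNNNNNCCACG. ERSE-II, a second form first described in the human HERPUD1 promoter, was searched as ATTGGNCCACG, a CRE-like core, related to the cyclic AMP response element, as TGACGTG, and the C/EBP-ATF composite site, through which ATF4 acts, as TTGCATCA. Both ERSE forms share the CCACG part, and no 2 matches in these 10 promoters overlapped. In the sequences, read 5′ to 3′ along the gene, capitals mark the outer parts of ERSE and the whole of the other matches.
Hspa5 (chr2:34771840-34772089, plus strand): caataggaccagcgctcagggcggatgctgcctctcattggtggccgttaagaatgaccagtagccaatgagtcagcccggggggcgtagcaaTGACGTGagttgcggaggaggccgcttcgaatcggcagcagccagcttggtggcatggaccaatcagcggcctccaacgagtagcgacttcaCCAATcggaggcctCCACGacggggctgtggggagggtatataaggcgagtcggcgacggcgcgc
Hsp90b1 (chr10:86705445-86705694, minus strand): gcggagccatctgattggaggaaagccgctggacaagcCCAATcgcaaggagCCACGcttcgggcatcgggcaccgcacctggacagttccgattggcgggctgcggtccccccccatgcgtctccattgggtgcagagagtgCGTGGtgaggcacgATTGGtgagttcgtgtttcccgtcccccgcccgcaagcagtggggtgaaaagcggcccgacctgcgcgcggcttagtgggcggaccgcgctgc
Calr (chr8:84846932-84847181, minus strand): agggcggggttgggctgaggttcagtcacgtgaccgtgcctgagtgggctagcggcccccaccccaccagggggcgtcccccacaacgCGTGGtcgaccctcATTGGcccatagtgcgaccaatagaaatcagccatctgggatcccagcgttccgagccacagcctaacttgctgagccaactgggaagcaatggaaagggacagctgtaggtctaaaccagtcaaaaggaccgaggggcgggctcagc
Canx (chr11:50325674-50325923, minus strand): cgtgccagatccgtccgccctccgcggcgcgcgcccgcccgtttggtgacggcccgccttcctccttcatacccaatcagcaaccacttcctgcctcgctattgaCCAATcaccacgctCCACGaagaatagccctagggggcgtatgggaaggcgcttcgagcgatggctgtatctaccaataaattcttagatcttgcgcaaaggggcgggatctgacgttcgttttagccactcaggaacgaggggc
Herpud1 (chr8:94386179-94386428, plus strand): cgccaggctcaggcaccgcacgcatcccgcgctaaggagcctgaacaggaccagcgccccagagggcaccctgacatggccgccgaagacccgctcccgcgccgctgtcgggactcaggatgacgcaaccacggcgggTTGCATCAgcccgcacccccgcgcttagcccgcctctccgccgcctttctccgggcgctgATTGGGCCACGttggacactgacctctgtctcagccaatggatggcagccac
Dnajb9 (chr12:44210069-44210318, minus strand): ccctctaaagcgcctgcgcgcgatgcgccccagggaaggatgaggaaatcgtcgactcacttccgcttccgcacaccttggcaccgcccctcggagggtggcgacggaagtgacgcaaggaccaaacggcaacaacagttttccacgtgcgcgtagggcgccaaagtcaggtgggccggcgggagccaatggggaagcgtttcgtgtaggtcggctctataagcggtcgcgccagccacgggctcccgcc

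ERSE matched in 4 of the 10 promoters: Hspa5 (bases 65 to 47 before the start), Canx (145 to 127), Calr (162 to 144, on the opposite strand) and Hsp90b1, which has 2 (212 to 194, and 107 to 89 on the opposite strand). Of 32851 mouse promoters of the same length, 37 held it (0.113%). ERSE is a known motif of ER stress genes, and the 10 genes were chosen as ER chaperone and stress genes. Matches among them are therefore no finding of these data, and the shares were not compared by a test. Hspa5 also held the CRE-like core at bases 157 to 151, as did 1.65% of promoters. Herpud1 held ERSE-II at bases 52 to 42, found in 10 promoters of the table (0.0304%), and the C/EBP-ATF composite at bases 112 to 105, found in 0.791%. Promoters of Dnajb9, Pdia4, Xbp1, Sdf2l1 and Ern1 held none of these letters in the window searched. A match describes the letters and does not show that a factor binds there.

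Of 15 tested genes with ERSE, 2 were higher with Cre (Calr and the ERAD ubiquitin ligase gene Syvn1). Another 1 was lower (Hnrnpa3, which encodes an RNA-binding protein) and 12 were not past the threshold. The median log2 change of the 15 was 0.023. Those 12 include Hspa5, Hsp90b1, Canx and the ER genes Pdia6, Creld2, Dnajc3 and Ero1lb. Of 6 tested genes with ERSE-II, 4 were lower (Herpud1, Rbm39, Lgalsl and Rcl1), 1 was higher (Nucb1) and Lrif1 was not past the threshold. Of 59 tested genes with the C/EBP-ATF composite, 22 were lower and 9 higher, with a median of -0.100, and of 266 with the CRE-like core 31 were lower and 42 higher, with a median of -0.001. Beside these counts stand the 32.9% called and the median of -0.013 over all tested genes. The genes that are named here for a motif and are outside the 10 were chosen after their values were seen.

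The stress sensor and the factor it activates were not past the threshold. Ern1 (Entrez 78943), which encodes the kinase and ribonuclease IRE1, was the least abundant of the 10, at 4.27 and 4.35 FPKM with YFP and 5.32 and 4.61 FPKM with Cre. Both Cre libraries were higher, but they differed from each other by more than the nearer of them differed from YFP. The log2 change was 0.17 (95% interval 0.0014 to 0.33, SE 0.074), with an unadjusted p of 0.0483 and a limma adjusted p of 0.113. Xbp1 (Entrez 22433), the mRNA that IRE1 splices, was 52.1 and 49.29 FPKM with YFP and 47.52 and 46.72 FPKM with Cre. It was lower in both Cre libraries, with a log2 change of -0.10 (interval -0.21 to 0.001, limma adjusted p = 0.119). The table gives Xbp1 as 1 value for 2 RefSeq transcripts, so spliced and unspliced mRNA cannot be told apart in it, and activity of IRE1 was not measured.

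The large ATP-driven chaperones were slightly lower with Cre and were not called. Hspa5 (Entrez 14828), the ER member of the HSP70 family that also keeps the stress sensors silent, was 495.27 and 504.69 FPKM with YFP and 479.79 and 470.95 FPKM with Cre. Hsp90b1 (Entrez 22027), the ER member of the HSP90 family, which folds integrins and toll-like receptors, was 723.99 and 725.46 FPKM with YFP and 682.92 and 663.21 FPKM with Cre. In both genes the groups did not overlap, and the Cre mean was 0.951 of the YFP mean for Hspa5 and 0.929 of it for Hsp90b1. The log2 change of Hspa5 was -0.07 (interval -0.17 to 0.028, limma adjusted p = 0.253). That of Hsp90b1 was -0.11 (interval -0.21 to -0.004, unadjusted p = 0.0431, limma adjusted p = 0.103). Scaling libraries to the same FPKM sum brought Hsp90b1 past the threshold (log2 change -0.125, limma adjusted p = 0.0425). The ratio of Hspa5 to Hsp90b1 within a library was 0.684 and 0.696 with YFP and 0.703 and 0.71 with Cre.

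The partners of BiP did not move as one. Dnajb9 (Entrez 27362) encodes ERdj4, a J-domain protein that stimulates the ATPase of BiP and that, in work with hamster cells, was reported to hold IRE1 in its inactive state. It was 36.79 and 41.13 FPKM with YFP and 51.24 and 50.99 FPKM with Cre, so that the YFP libraries differed from each other far more than the Cre libraries did, and still lay below them. Its mean rose 1.31-fold (log2 change 0.39, interval 0.26 to 0.51, SE 0.055, limma adjusted p = 4.55e-04), the largest change among the 10. The call held in all 11 alternatives, with adjusted p from 4.95e-06 to 0.0123. Sdf2l1 (Entrez 64136), which works with J-domain proteins to keep misfolded chains soluble, was 10.21 and 9.92 FPKM with YFP and 10.19 and 10.16 FPKM with Cre. The groups overlapped, and the interval of the log2 change ran from -0.11 to 0.14 (limma adjusted p = 0.867).

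The paired lectin chaperones differed in their calls. Calr (Entrez 12317), the soluble one, was the most abundant of the 10 at 1023.83 and 1101.33 FPKM with YFP and 1189.53 and 1184.32 FPKM with Cre. Both Cre libraries were higher, and the mean rose 1.12-fold (log2 change 0.16, interval 0.046 to 0.27, limma adjusted p = 0.0354). That call depended on which libraries were kept and on the settings of the test. Leaving out YFP replicate 1 lowered the log2 change to 0.108. Leaving out Cre replicate 1 or Cre replicate 2 gave 0.157 or 0.164, close to the 0.160 of all libraries. The call was lost each time. With either Cre library left out, fewer of all tested genes were called as well. Without a filter on low values the adjusted p was 0.0725, and without the trend and robust settings of limma it was 0.0819. Canx (Entrez 12330), the membrane-bound one, was 188.84 and 189.23 FPKM with YFP and 193.89 and 190.23 FPKM with Cre, with a log2 change of 0.02 (interval -0.074 to 0.12, limma adjusted p = 0.728). The ratio of Calr to Canx was 5.42 and 5.82 in the YFP libraries and 6.14 and 6.23 in the Cre libraries. It was higher in both Cre libraries, but an exact two-sided permutation test of 2 against 2 libraries cannot go below p = 0.333, so no ratio is tested here.

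Pdia4 (Entrez 12304), a disulfide isomerase also known as ERp72, was 125.5 and 123.62 FPKM with YFP and 122.52 and 121.44 FPKM with Cre. The nearest libraries of the groups were apart by less than the YFP libraries were from each other, and the log2 change was -0.03 (interval -0.13 to 0.065, limma adjusted p = 0.638). Herpud1 (Entrez 64209) encodes a ubiquitin-like membrane protein that organises the ERAD ligase complex around HRD1, and its promoter carries the ERSE-II and C/EBP-ATF letters shown above. It was 48.95 and 47.6 FPKM with YFP and 41.01 and 40.72 FPKM with Cre, with replicates close together and the groups apart. It fell to 0.85 of its YFP mean (log2 change -0.23, interval -0.33 to -0.14, SE 0.045, limma adjusted p = 0.00242), and the call held in all 11 alternatives with adjusted p from 0.000539 to 0.0415.

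**Figure D2:**
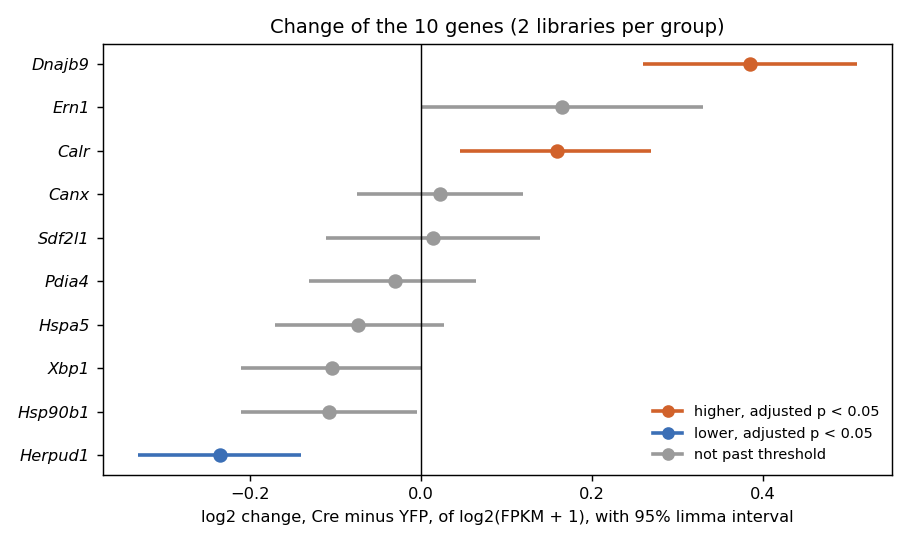
Log2 change (x axis, Cre minus YFP, on the log2(FPKM + 1) scale) of each of the 10 genes, with its 95% interval from limma; colour marks a call at an adjusted p under 0.05. Dnajb9 at 0.39 and Calr at 0.16 are called higher, Herpud1 at -0.23 is called lower, and the other 7 genes lie between -0.11 and 0.17.

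Ordered by FPKM, which is a level per length and can be set side by side between genes, Calr stood above Hsp90b1, Hspa5, Canx and Pdia4, with no overlap between neighbours over the 4 libraries. Xbp1, Herpud1 and Dnajb9 formed a middle group within 36.79 to 52.1 FPKM in which neighbours overlapped. Sdf2l1 and Ern1 were lowest and did not overlap. Within the middle group the order differed between the groups. With YFP, Xbp1 (mean 50.7 FPKM) and Herpud1 (48.3 FPKM) stood above Dnajb9 (39.0 FPKM), and with Cre Dnajb9 (51.1 FPKM) stood above Xbp1 (47.1 FPKM) and Herpud1 (40.9 FPKM). The ratio of Dnajb9 to Herpud1 was 0.752 and 0.864 in the YFP libraries and 1.25 in each Cre library, and that of Dnajb9 to Hspa5 was 0.0743 and 0.0815 with YFP and 0.107 and 0.108 with Cre. Dnajb9 was higher in both Cre libraries, and Herpud1 and Hspa5 were lower in both. Both ratios therefore had to be higher with Cre, and they add nothing to the values of the single genes.

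Among the 129 tested genes of the other ER lists described next, those whose 4 values, centred on their own mean, lay closest to the values of Hspa5 were Ssr1 (distance 0.033 on the log2 scale over 4 libraries), Creb3l1 (0.037) and Dnajc1 (0.039). Ssr1 encodes a subunit of the translocon-associated protein complex, Creb3l1 a membrane-bound transcription factor known for its role in osteoblasts, and Dnajc1 a J-domain protein. None of the 3 was called, which largely follows from choosing genes close to Hspa5, itself not called.

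In 9 further lists of ER genes, the calls were again divided. Together the lists hold 131 genes, of which 129 were tested, and 21 were higher with Cre and 23 lower, so that 34.1% were called against 32.9% of all tested genes. Clgn and Derl3, at no more than 0.31 FPKM in any library, were not tested. Each list is described by its counts, to be read beside the 16.6% higher and 16.3% lower of all tested genes. The share called ran from 10% (stress sensors and their processing) to 53.8% (PERK and CHOP). Up to 4 genes with the smallest p are named by rule, and genes beyond those were named after their values were seen. Where leaving out a library ended a call, the library is named, with Cre 1 standing for Cre replicate 1 and so on.

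Of 10 BiP cofactors and co-chaperones, 3 were higher and 0 lower. Dnajb11, another J-domain protein of the lumen, rose from 67.74 and 66.01 FPKM to 78.99 and 77.7 FPKM (log2 change 0.23, limma adjusted p = 0.00287). Sec63, a J-domain protein of the translocon, rose by the same 0.23. Hyou1, a large HSP70 relative that exchanges the nucleotide of BiP, rose by 0.16. The call of Hyou1 was lost with YFP 2, Cre 1 and Cre 2 left out (adjusted p 0.253, 0.127 and 0.281) and in 5 other alternatives. Manf, a secreted ER stress protein, was 94.76 and 93.83 FPKM with YFP and 87.47 and 90.01 FPKM with Cre (limma adjusted p = 0.156). The calls of Dnajb11 and Sec63, like that of Dnajb9, held in all 11 alternatives, while BiP itself did not pass the test.

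Of 16 disulfide isomerases and oxidases, 2 were higher and 5 lower. The peroxiredoxin gene Prdx4, whose product oxidises disulfide isomerases, fell from 87.1 and 83.01 FPKM to 69.57 and 73.9 FPKM (log2 change -0.24, limma adjusted p = 0.00353). The thioredoxin-related genes Tmx3 and Tmx4 fell by 0.22 and 0.24 on the log2 scale, the oxidase gene Ero1l by 0.16 and the sulfhydryl oxidase gene Qsox1 by 0.13. Pdia5 rose by 0.22. Pdia3, which acts on glycoproteins held by calreticulin and calnexin, rose by 0.16, from 581.68 and 597.0 FPKM to 664.03 and 651.08 FPKM. Leaving out 1 library ended each of these 7 calls. The call of Prdx4 was lost with Cre 1 left out (adjusted p 0.0627). That of Tmx3 was lost with Cre 2 left out (adjusted p 0.0884). The call of Tmx4 was lost with YFP 2, Cre 1 and Cre 2 left out (adjusted p 0.0665, 0.0752 and 0.0892). That of Ero1l was lost with Cre 1 and Cre 2 left out (adjusted p 0.087 and 0.146) and in 1 other alternative. The call of Qsox1 was lost with YFP 1, YFP 2, Cre 1 and Cre 2 left out (adjusted p 0.0637, 0.0637, 0.21 and 0.157) and in 3 other alternatives. That of Pdia5 was lost with Cre 1 left out (adjusted p 0.0829). The call of Pdia3 was lost with YFP 1, Cre 1 and Cre 2 left out (adjusted p 0.0624, 0.169 and 0.121) and in 1 other alternative.

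Of 8 tested genes of glycoprotein folding, 3 were higher and 1 lower. Prkcsh, the beta subunit of glucosidase II, which trims the sugars that calreticulin and calnexin bind, rose from 93.89 and 86.53 FPKM to 111.54 and 114.29 FPKM (log2 change 0.32, limma adjusted p = 7.16e-04), and the call held in all 11 alternatives. The cargo lectin gene Lman2 and the mannosidase gene Man1b1 rose by 0.17 each on the log2 scale, and Uggt2, a paralog of the folding sensor Uggt1, fell by 0.21 from 4.64 and 4.91 FPKM. The call of Lman2 was lost with Cre 1 and Cre 2 left out (adjusted p 0.116 and 0.0882). That of Man1b1 was lost with YFP 2, Cre 1 and Cre 2 left out (adjusted p 0.0803, 0.143 and 0.106) and in 2 other alternatives. The call of Uggt2 was lost with YFP 2, Cre 1 and Cre 2 left out (adjusted p 0.159, 0.0869 and 0.221) and in 2 other alternatives.

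Of 16 collagen chaperones and modifying enzymes, 4 were higher and 2 lower. Serpinh1, which encodes the collagen chaperone HSP47, fell from 905.76 and 906.0 FPKM to 714.15 and 733.7 FPKM (log2 change -0.32, limma adjusted p = 4.39e-04). P4ha3, a prolyl hydroxylase subunit, fell from 38.92 and 38.05 FPKM to 24.97 and 26.47 FPKM (log2 change -0.56, limma adjusted p = 1.62e-05). The prolyl isomerase gene Fkbp11 rose by 0.30 and the lysyl hydroxylase gene Plod1 by 0.23. Fkbp7, another prolyl isomerase gene, and Crtap, which takes part in collagen prolyl hydroxylation, rose by 0.15 and 0.13. The calls of Serpinh1, P4ha3 and Fkbp11 held in all 11 alternatives. The call of Plod1 was lost with Cre 1 and Cre 2 left out (adjusted p 0.063 and 0.0568). That of Fkbp7 was lost with Cre 1 and Cre 2 left out (adjusted p 0.0598 and 0.247) and in 2 other alternatives. The call of Crtap was lost with YFP 2, Cre 1 and Cre 2 left out (adjusted p 0.129, 0.0885 and 0.346) and in 5 other alternatives.

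Of 24 tested ERAD genes, 5 were higher and 2 lower. Ufd1l, a cofactor of the p97 ATPase that pulls proteins out of the membrane, rose from 39.76 and 40.54 FPKM to 47.4 and 48.9 FPKM (log2 change 0.26, limma adjusted p = 0.00154), and Derl1, a channel component, fell from 41.16 and 38.45 FPKM to 33.25 and 33.19 FPKM (log2 change -0.25, limma adjusted p = 0.00268). Both calls held in all 11 alternatives, as did that of Herpud1. The ubiquitin pathway genes Ube2g2 and Rnf5 rose by 0.24 and 0.22 on the log2 scale. Os9, a lectin that brings glycoproteins to the ligase, and Syvn1, the ligase HRD1, rose by 0.16 and 0.15, while Sel1l, the partner of HRD1, fell by 0.14. The call of Ube2g2 was lost with Cre 2 left out (adjusted p 0.0582). That of Rnf5 was lost with Cre 2 left out (adjusted p 0.0801). The call of Os9 was lost with YFP 2, Cre 1 and Cre 2 left out (adjusted p 0.082, 0.116 and 0.151) and in 2 other alternatives. That of Syvn1 was lost with YFP 1, YFP 2, Cre 1 and Cre 2 left out (adjusted p 0.0642, 0.0539, 0.189 and 0.125) and in 4 other alternatives. The call of Sel1l was lost with YFP 1, Cre 1 and Cre 2 left out (adjusted p 0.135, 0.136 and 0.21) and in 3 other alternatives.

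Of 27 translocon and signal peptidase genes, 2 were higher and 5 lower, and members of the signal peptidase, which cuts the leader off entering chains, stood at both ends. Spcs3 fell from 44.79 and 44.56 FPKM to 31.0 and 30.64 FPKM (log2 change -0.52, limma adjusted p = 1.48e-05), Spcs2 fell by 0.32 and the catalytic subunit gene Sec11a by 0.15, while its paralog Sec11c rose from 24.22 and 23.56 FPKM to 29.8 and 30.07 FPKM (log2 change 0.31, limma adjusted p = 5.19e-04). The calls of Spcs3, Spcs2 and Sec11c held in all 11 alternatives. The oligosaccharyltransferase genes Dad1 and Ostc went opposite ways, up by 0.22 and down by 0.17, and Ssr2 fell by 0.15. The call of Dad1 was lost with Cre 2 left out (adjusted p 0.0806). That of Ostc was lost with Cre 1 and Cre 2 left out (adjusted p 0.113 and 0.0791). The call of Ssr2 was lost with Cre 1 and Cre 2 left out (adjusted p 0.126 and 0.121) and in 1 other alternative. That of Sec11a was lost with Cre 1 and Cre 2 left out (adjusted p 0.15 and 0.103) and in 1 other alternative.

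Of 10 tested stress sensors and the proteases and factors around them, 1 was higher and 0 lower. It was Creb3, a transcription factor cut in the Golgi as ATF6 is, which rose from 41.68 and 44.77 FPKM to 53.42 and 55.06 FPKM (log2 change 0.32, limma adjusted p = 6.60e-04). Atf6 was 12.41 and 12.83 FPKM with YFP and 12.2 and 11.5 FPKM with Cre (limma adjusted p = 0.277). The site-1 and site-2 protease genes that cut it, Mbtps1 and Mbtps2, had log2 changes of -0.09 and -0.15 (limma adjusted p = 0.245 and 0.102). With YFP 2 left out, Mbtps1 was called (log2 change -0.167, adjusted p 0.0295). Of 6 reported substrates of mRNA decay by IRE1, 2 were lower, Col6a1 by 0.28 and Pdgfrb by 0.22. The call of Pdgfrb was lost with Cre 2 left out (adjusted p 0.0692). Bloc1s1, a commonly used reporter of that decay, was 54.79 and 52.08 FPKM with YFP and 51.27 and 52.82 FPKM with Cre, and Hgsnat was 19.86 and 17.92 FPKM and 19.46 and 20.37 FPKM, so that both overlapped between groups.

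Of 13 genes of the PERK and CHOP list, 6 were lower and 1 higher, so 53.8% were called, against 32.9% of all tested genes. Trib3 had the largest change of any gene of the lists. Trib3, a pseudokinase gene induced by ATF4 and CHOP, fell from 31.59 and 27.73 FPKM to 14.07 and 13.63 FPKM, Chac1, a glutathione-degrading enzyme gene, from 22.01 and 20.23 FPKM to 14.02 and 14.21 FPKM, and Atf4 from 212.58 and 215.54 FPKM to 164.03 and 163.48 FPKM. With Nupr1, a stress-induced chromatin protein gene, the log2 changes were -1.04, -0.55, -0.38 and -0.52 (limma adjusted p = 1.69e-06, 4.49e-05, 9.28e-05 and 1.28e-05), and the calls held in all 11 alternatives. Ddit3, the gene of CHOP, and the asparagine synthetase gene Asns fell by 0.35 and 0.41, also in all 11. Atf3 rose by 0.24, from 2.98 and 3.17 FPKM to 3.71 and 3.93 FPKM. The call of Atf3 was lost with YFP 1, Cre 1 and Cre 2 left out (adjusted p 0.0942, 0.0668 and 0.162) and in 1 other alternative. Cebpb differed more but was not called, at 15.34 and 9.18 FPKM with YFP and 19.15 and 21.69 FPKM with Cre (limma adjusted p = 0.259). The gene of the kinase PERK, Eif2ak3, was not past the threshold. Activity of PERK and the ATF4 protein were not measured, so these values are of mRNA only. The log2 changes of the 10 genes of the chaperone set lay between -0.23 and 0.39, and the difference between the lists was not tested.

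**Figure D3:**
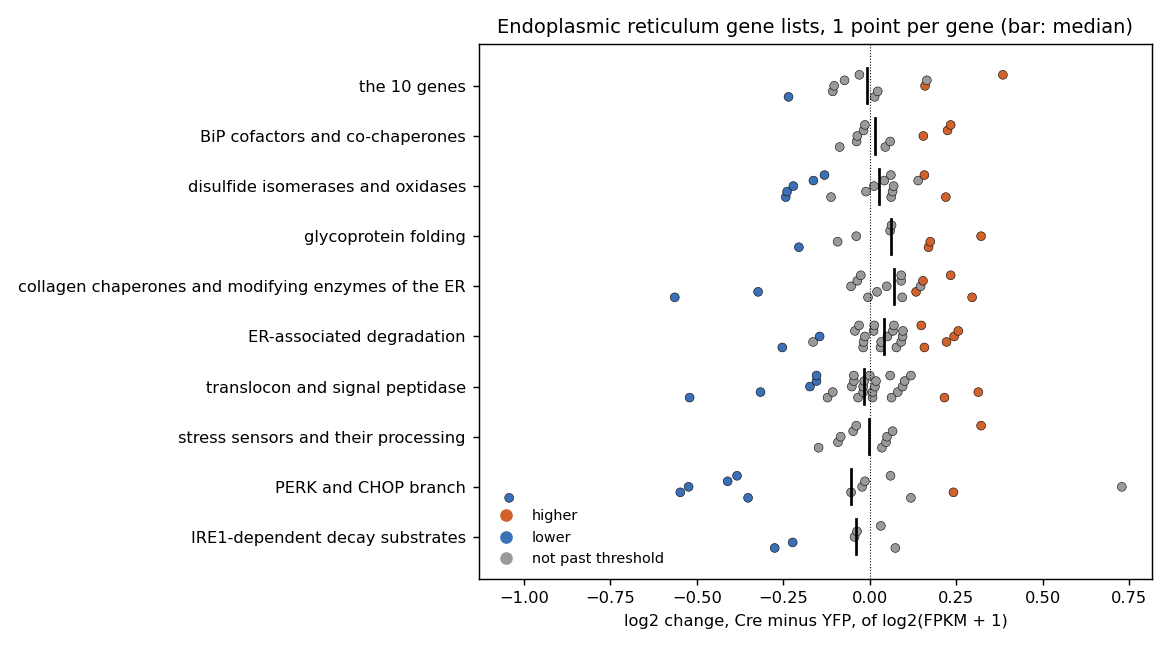
Log2 change (x axis, Cre minus YFP) of every tested gene of the 10 described genes and the 9 other ER lists (rows), 1 point per gene, coloured by its call; bars are list medians. The medians lie between -0.054 and 0.070, and the point furthest to the left, at -1.04, is Trib3 of the PERK and CHOP list.

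The 3′ UTRs of the 10 genes were searched for 7 bases complementary to bases 2 to 8 (the seed) of the miRNAs of the floxed cluster, whose loss was not measured here, since miRNAs bind mRNA mainly through such sites. Only the mature miRNAs printed here were used, and no other mature arm of the cluster was searched. They fall into 4 seed families, shown with the seed in capitals (RefSeq, GRCm38.p6, chromosome 14).
miR-17-5p: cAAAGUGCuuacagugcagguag
miR-20a-5p: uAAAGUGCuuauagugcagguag
miR-18a-5p: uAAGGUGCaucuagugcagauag
miR-19a-3p: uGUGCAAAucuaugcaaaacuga
miR-19b-3p: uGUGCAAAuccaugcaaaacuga
miR-92a-3p: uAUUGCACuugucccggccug

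In the longest 3′ UTR annotated for each gene (GENCODE M21, GRCm38), 3 of the 10 genes held such a site and 7 held none. Of the 10963 tested genes with an annotated 3′ UTR, 65.8% held none, so the 10 genes were close to that share. Dnajb9 held 3 sites, 1 for each of the miR-17, miR-19 and miR-92 families, Ern1 held 2 for the miR-17 family and Canx 1 for the miR-18 family. The sites are printed with 11 bases on either side and the match in capitals, and the position of the match is counted from 1 at the first base after the stop codon.
Dnajb9, miR-17 family, first base 942 of 1395: tctttagttctGCACTTTtccatgttata
Dnajb9, miR-19 family, first base 793 of 1395: gtagtcactctTTTGCACttatctttatc
Dnajb9, miR-92 family, first base 877 of 1395: aaccttattatGTGCAATattttaaattt
Canx, miR-18 family, first base 743 of 2321: tccattcacaaGCACCTTtgaagagggaa
Ern1, miR-17 family, first base 2355 of 3892: ccaaagcacttGCACTTTtgggaacatag
Ern1, miR-17 family, first base 3121 of 3892: ggttgctcttgGCACTTTggtctcttctg

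The miR-92 family site of Dnajb9 was the 1 of these 6 that is followed by an A, the longer form that is usually the more effective. Of 10963 tested genes with an annotated 3′ UTR, 14.9% held a miR-17 family site, 13.8% a miR-19 site, 9.18% a miR-18 site and 7.63% a miR-92 site. Sites of exactly 3 families, as in Dnajb9, were found in 169 genes (1.54%), of which 14 were higher with Cre and 27 lower, with a median log2 change of -0.052. Of the 7213 genes with no site, 1261 were higher and 1205 lower, with a median of -0.009. Genes with 3 families had a median UTR length of 3858 bases, against 1201 over all these genes and 1395 for Dnajb9. The difference between these groups of genes was not tested, and binding was not measured.

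**Figure D4:**
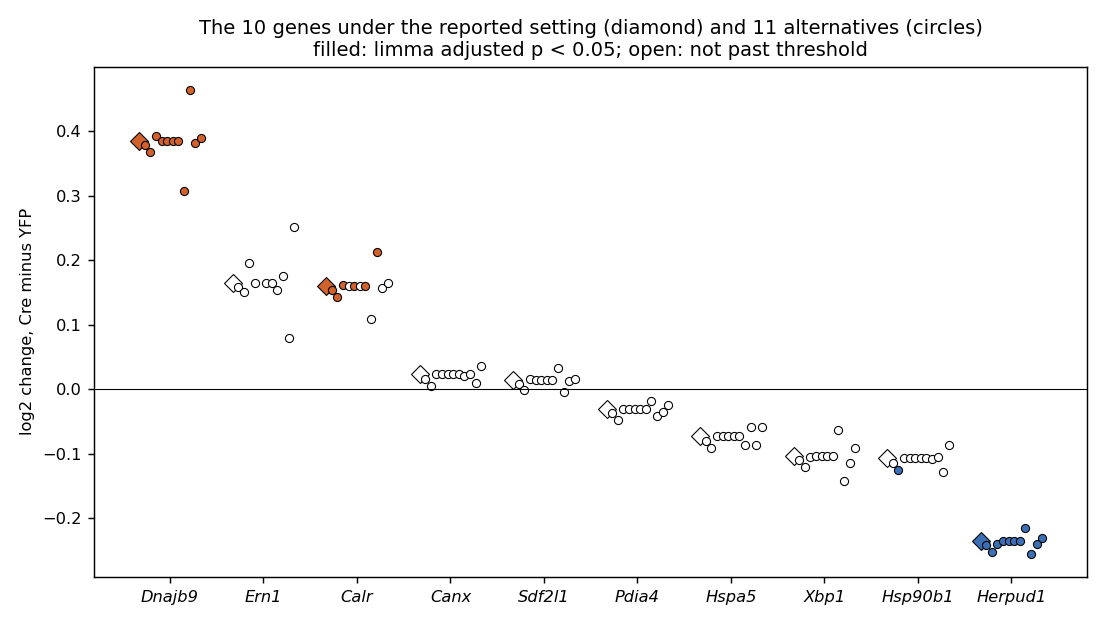
Log2 change (y axis, Cre minus YFP) of each of the 10 genes under the reported setting (diamond) and under up to 11 alternatives (circles); filled symbols are past the threshold. Dnajb9 (0.31 to 0.46) and Herpud1 (-0.26 to -0.21) are filled throughout, Calr is filled in 6 of 11 alternatives, and Hsp90b1 in 1.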

How the data were processed

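The 4 libraries are polyA-selected RNA sequenced single-end on the BGISEQ-500, per the labels' protocols. The authors deposited 1 table of FPKM values, to 2 decimals, with 1 column per library. The submitters' processing notes list Bowtie 02.2.5 and mm8. The sources used here do not give the FPKM program, the annotation or whether strand was used, so reads of overlapping or near-identical genes may be shared. Columns were assigned by the number that matches a sample description.

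The 12046 genes that reached 1 FPKM in 2 or more libraries were compared on log2(FPKM + 1), a scale that understates changes of low genes, with limma 3.58.1 in R 4.3.3 (trend and robust empirical Bayes, two-sided, Benjamini-Hochberg over all tested genes, threshold 0.05, 95% intervals). The procedure was tested on simulated data whose spread was taken from the same fit, so that test cannot check the spread itself. Members, gene lists and tests were chosen with earlier results of these data known. Genes named by rule are the 10 members, up to 4 genes of each list with the smallest p, the genes closest to Hspa5, and the 2 most abundant markers of each marker list. Other genes, markers among them, were named outside that rule and with their values seen. Alternatives covered scaling, pseudocount, filter, limma settings, a replicate block and leaving out each library. Promoters and miRNAs are from RefSeq (GRCm38.p6), 3′ UTRs from GENCODE M21. That build is not mm8, so no coordinates were joined to the table.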

Additional observations from a re-analysis of the deposited data

How the results depend on the processing

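Of 109 values of the 10 genes under alternatives, 101 kept direction and side of the threshold. Sdf2l1, not called in any setting, reversed sign with libraries scaled to the same FPKM sum (log2 change -0.002) and without YFP replicate 2 (-0.005), and its values with 1 library left out ran from -0.005 to 0.033. Ern1 has no value at a mean FPKM of at least 5. The count of members lower with Cre was 1 in every alternative but scaling to the same FPKM sum, where it was 2 (Herpud1 and Hsp90b1). The count higher was 1 with no filter and with limma with neither trend nor robust settings, and ranged from 1 to 2 when 1 library was left out. Over all tested genes, leaving out 1 library gave 845 to 1732 lower and 975 to 1934 higher, lowest without Cre replicate 2; the other alternatives stayed within 1.5 times. The share of higher calls was 45.4% with the same FPKM sum and 57.7% with no filter, against 50.4%.

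The replicate numbers pair no libraries by the labels, and same-numbered libraries did not deviate together over genes (r = -0.0313). With a replicate block, 1851 genes were higher and 1682 lower, and the 10 genes kept their calls (Calr adjusted p = 0.0456). Of 548 values of the other ER genes named or called, 89 lost the call, 1 gained it and 0 reversed. Having 2 libraries a group limits the precision of every value.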
